A study of Mus musculus with 46 samples.

Results

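The comparison described here is that of 12-week-old R6/2 mice with their wild-type littermates, made on RNA-seq of glial cells sorted from the striatum. Members were chosen by the column names of the deposited count table: 7 R6/2 pools and 7 wild-type pools, 14 of the 46 pools of the series. R6/2 mice carry a transgene of human HTT exon 1 with an expanded CAG repeat under the human HTT promoter, and all mice, controls included, carried EGFP as a reporter of the progenitor receptor PDGFRA. Per the labels' protocols, each pool joins the striata of same-genotype mice from 1 litter, dissected free of the subventricular zone, and live cells with EGFP were sorted from it. The strain and the sex of the mice are not in the labels used here. Beside the 12-week result stand 6-week pools of the same line (6 R6/2 and 5 wild type) and 12-week pools of the zQ175 line (6 and 6), a knock-in with an expanded CAG repeat in the mouse Htt gene. Pools were formed by litter, so the spread between pools includes differences between mice.

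Oligodendrocyte progenitors express PDGFRA, receive synapses from axons, and carry glutamate and GABA receptors, sodium channels and the chondroitin sulfate proteoglycans that surround them. As they mature they lose these genes and gain myelin genes, gap junctions and the iron stores that mature oligodendrocytes are known for. Notch, BMP, Wnt and receptor tyrosine kinase signals steer that passage. Mature oligodendrocytes also pass lactate on to axons.

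Of 14952 genes tested with edgeR's quasi-likelihood test, 5704 (38.1%) were called at a Benjamini-Hochberg adjusted p below 0.05, the threshold for "called", "rose" and "fell" throughout. Calls split evenly, 2848 higher (19%) and 2856 lower (19.1%) in R6/2, and these shares are the background for each list below. The 2-fold mark was passed by 1479 called genes upwards (9.89%) and by 813 downwards (5.44%). For 2689 genes (18%) the groups did not overlap, every R6/2 pool lying on one side of every wild-type pool, 1436 with R6/2 above (9.6%) and 1253 below (8.38%). Levels are CPM, counts per 1000000 reads scaled by TMM (trimmed mean of M-values), and fold changes are R6/2 over wild type on the log2 scale.

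The even split rests on the scaling. Markers of mature oligodendrocytes took 7.45 to 8.84% of all counts in R6/2 pools and 14.4 to 14.7% in wild-type pools, and TMM scaling offsets such a gap. With library totals alone, an alternative chosen after seeing the data, 7058 genes were higher (47.2%) and 1152 lower (7.7%), and the median log2 fold change over all genes moved from -0.03 to 0.34. Fold changes are therefore relative to the middle of all genes, and lists are read against that median.

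Total expected counts lay between 33337839 and 49166260 per pool. R6/2 replicate 7 stood apart: it held the highest mitochondrial share, 2.72% against 0.726% for the lowest R6/2 pool, and it had the lowest mean level of the R6/2 pools in 19 of the 34 gene lists below. Without it 7026 genes were called, and 5520 of the 5704 calls stood with the same direction. The pools also differed in sex, as read from 4 Y-linked transcripts. These summed to 0 to 136 CPM (median 0) in R6/2 and 46.9 to 273 (median 99.2) in wild-type pools. Sex thus partly followed genotype, and their effects cannot be fully told apart. Adding the Y-linked transcripts as a covariate left 4278 calls, of which 4086 were shared with the result without it. A second covariate, called the other-cell covariate below, held the markers of microglia, vessels and fibroblasts and left 4192 calls, 3447 of them shared. Counts of a list with either covariate are given beside it where they differ by more than 1.5 times.

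Other cells were present in both groups. The summed level of 25 progenitor markers was 3992 to 4878 CPM in R6/2 and 2672 to 3947 in wild-type pools, overlapping not at all, while 24 mature oligodendrocyte markers summed to 63320 to 82230 and 158100 to 170900 CPM. The sorted cells thus held far more RNA of mature oligodendrocytes than of progenitors in both groups. Of the 25 progenitor markers 17 rose and 3 fell (median log2 fold change 1.49), 9 and 3 with the other-cell covariate. Of the 24 mature markers 0 rose and 23 fell (median -1.05). Summed levels of 17 microglia and macrophage markers were 94.8 to 272 CPM in R6/2 against 151 to 441, those of 15 endothelial markers 255 to 319 against 362 to 495, and those of 13 fibroblast markers 131 to 494 against 392 to 1068. Sums of 15 neuronal markers went the other way, 269 to 355 CPM against 118 to 158, and so did those of 12 neuroblast markers, 116 to 227 against 51.1 to 65.8. Astrocyte markers, 16 of them, summed to 814 to 1249 CPM against 606 to 854. Ependymal markers, 10 of them, summed to 9.8 to 21.8 CPM against 28.2 to 42.6, and 14 markers of striatal projection neurons, of which Gpr6 was at 0 in all pools, to 102 to 157 against 240.3 to 320. In such bulk pools, fewer cells of a type and less RNA per cell cannot be told apart. Pdgfra itself, the reporter's gene, was not called, 23.5 to 98.5 CPM (median 76.2) in R6/2 and 48.3 to 117 (median 107) in wild-type pools (adjusted p = 0.54, edgeR). R6/2 replicate 7 was the pool at 23.5 CPM. Htt was not called either (log2 fold change 0.13, adjusted p = 0.64, edgeR), though it was on library totals. Mouse Htt does not check for the human transgene.

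**Figure D1:**
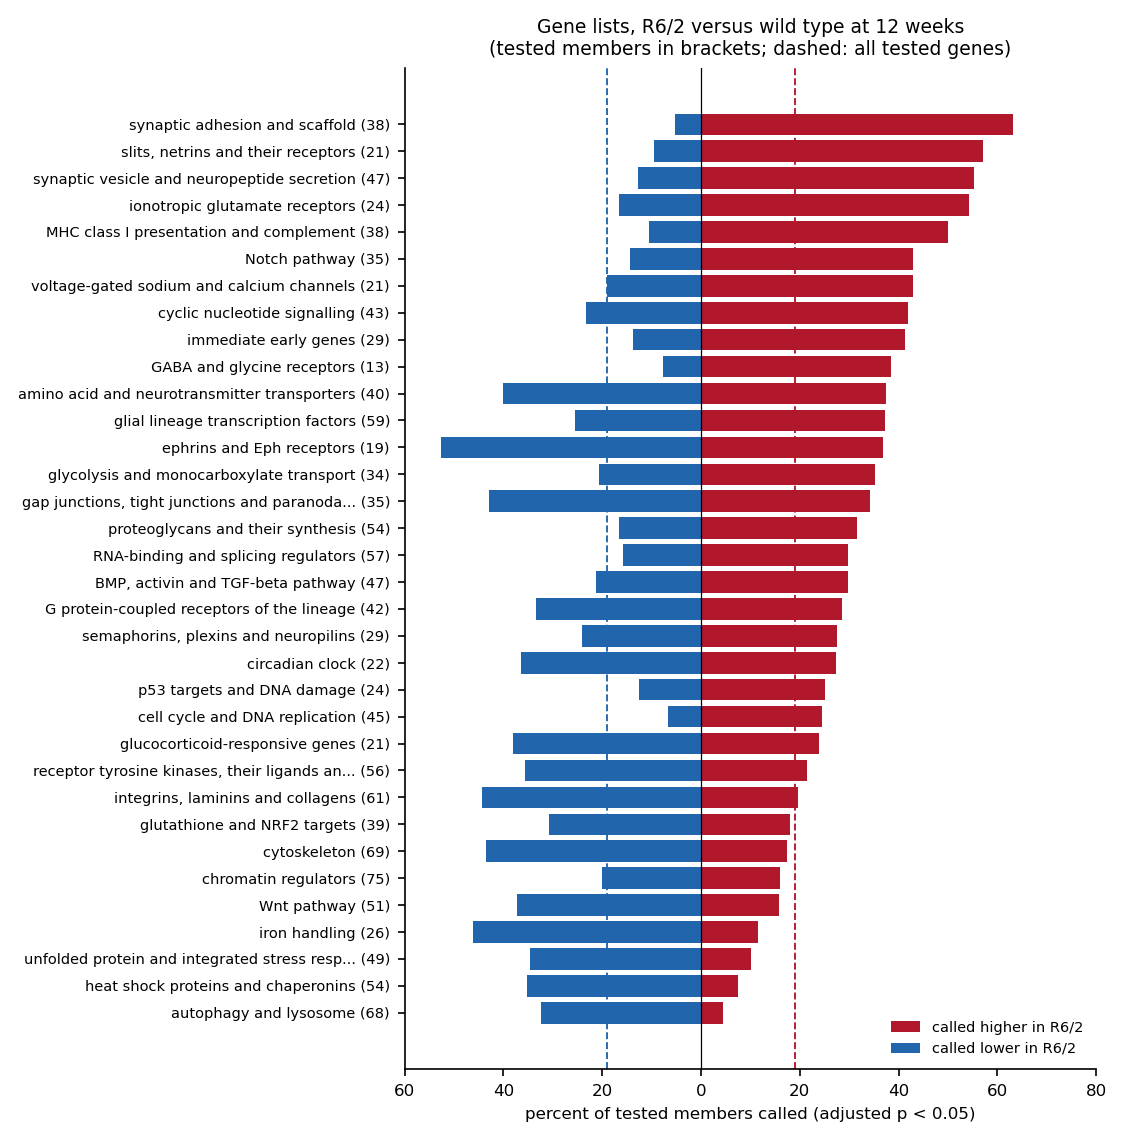
Percent of tested members of 34 gene lists called higher (red, to the right) or lower (blue, to the left) in 12-week R6/2 pools, with the number tested in brackets; dashed lines mark the share over all 14952 genes, 19% and 19.1%. Synaptic adhesion and scaffold genes had the highest share of rises, 24 of 38, and ephrins and Eph receptors the highest share of falls, 10 of 19.

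Off the lists of myelin, cholesterol and interferon-stimulated genes, those that rose most included Fxyd6, a regulatory subunit of the sodium pump. Its level was 196 to 347 CPM (median 286) in R6/2 and 5.22 to 13.3 (median 11.4) in wild-type pools, a log2 fold change of 4.82 ± 0.22 (SE; adjusted p = 1.2e-10, edgeR). Brca1, a DNA repair gene, was at 49.9 to 87.2 CPM (median 69.7) against 1.74 to 3.79 (median 2.93). Tmc3, of a family of mechanosensory channels, was at 29.1 to 42.8 CPM (median 35.8) against 0.634 to 2.27 (median 1.48). Genes of this rank were picked among those whose groups did not overlap and whose mean was at least 10 CPM in a group. Their separation was thus fixed by the choice. For these 3 genes the lowest R6/2 pool exceeded the highest wild-type pool more than 10-fold. The other rises of this rank were Gucy2f, a retinal guanylate cyclase (6.48), Reln, an extracellular guidance protein (5.70), Ppl, a plakin linker protein (5.67), Nptx1, a neuronal pentraxin (5.32), Clvs1 (5.21) and Fam196b (5.11), each at 1.03 CPM or less in every wild-type pool, together with the interferon-responsive Ifit3b (4.72), Ddx60 (4.67) and Gbp6 (4.58).

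The deepest falls by the same rule were Nhlrc4, Kit, Fam83d, Scara5, Dlk2, Kcnk5, Kcnk13, Angptl2, Plppr3, Col1a1, Slc12a8 and Ldb3, with log2 fold changes from -2.48 to -2.15. Kcnk13, a 2-pore potassium channel, was the most abundant of them, 50.3 to 88.4 CPM (median 61) in R6/2 and 272 to 325 (median 316) in wild-type pools (log2 fold change -2.24 ± 0.12, adjusted p = 3.9e-10, edgeR). Fam83d was at 6.24 to 11 CPM (median 6.57) against 27.9 to 48.6 (median 41.9). Falls were thus far smaller than rises at this rank. All 24 genes kept their call when any 1 pool was left out and with either covariate. Clvs1, Tmc3, Reln, Dlk2 and Plppr3 have exons that overlap those of an opposite-strand neighbour. Reads of the shared stretch cannot be told apart, since the library kit does not record the strand. In all, 54 of the 205 genes named here have such a neighbour in GENCODE M21, among them Unc5a, Bmp6, Notch1, Pfkm, Pfkp, Junb, Nr1d1, Ppt1, Psme1 and Col9a3, and the same limit holds for each.

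**Figure D2:**
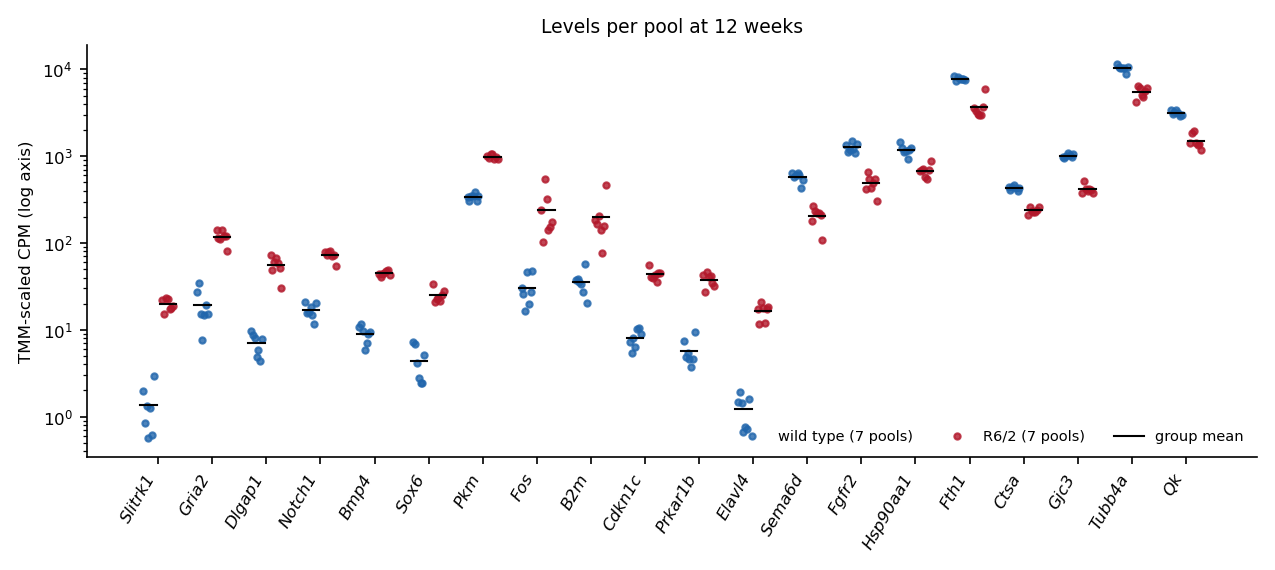
TMM-scaled CPM on a log axis for 20 genes in each wild-type (blue) and R6/2 (red) pool at 12 weeks, with black bars for the group means. The 20 genes were picked by hand from those named in the text, and groups do not overlap for any of them. Over all genes tested this holds for 18%. Fos and B2m spread over a wider range among R6/2 pools than the others.

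Genes of synapse formation made the most one-sided list. Of 38 tested synaptic adhesion and scaffold genes, 24 rose and 2 fell (26 and 2 without R6/2 replicate 7, 30 and 2 on library totals), with a median log2 fold change of 1.02 against -0.03 over all genes. The rises gathered in the postsynaptic adhesion molecules, 16 of 20, against 4 of 7 presynaptic partners and 4 of 11 scaffolds. Slitrk1, a transmembrane organizer of synapses, was at 15.1 to 23.3 CPM (median 18.8) in R6/2 and 0.56 to 2.96 (median 1.26) in wild-type pools (log2 fold change 3.84 ± 0.31, adjusted p = 5.3e-08, edgeR). Lrrtm4, a leucine-rich adhesion protein of excitatory synapses, was at 14.4 to 34.3 CPM (median 26.4) against 0.527 to 3.39 (median 1.64). Slitrk4 (3.46) and Slitrk2 (3.29) rose alongside, as did Dlgap1, a scaffold of the postsynaptic density, at 30.1 to 72.6 CPM (median 59.5) against 4.41 to 9.6 (median 7.86). Lrrc4, a netrin-G ligand, was higher at 79.5 to 92.1 CPM (median 89.3) against 20.4 to 27.6 (median 25.4). None of these genes had overlapping groups. Genes named for a list were mostly picked for large changes or after their values were seen, which favours separation. In this list 20 of the 38 had separated groups, against 18% over all genes. The 2 falls were Ptprd, a receptor phosphatase that organizes presynaptic sites, at 368 to 719.5 CPM (median 559) against 1137 to 1672 (median 1502), and the scaffold Dlg1 (-0.75 ± 0.12). Markers of neurons moved with this list: of 11 tested, 5 rose, with a median of 1.00, and 6 were not called. Map2, Tubb3 and Syp made up most of their sum, which was higher in R6/2 as given above. Among those not called, Stmn2, Nefl and Gad2, named after their values were seen, averaged 0.701, 0.329 and 0.398 CPM in R6/2 and 1.08, 0.45 and 0.896 CPM in wild-type pools. Most progenitor markers rose as well, as given above. The part of neuronal or of progenitor RNA in the rises of synaptic genes was not tested. With the other-cell covariate 20 members of the synaptic list were higher and 5 lower.

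Glutamate receptor subunits rose too, 13 of 24 with 4 falls and a median of 0.70 (16 and 2 on library totals). With the Y-linked covariate 10 rose and 2 fell, and with the other-cell covariate 7 and 2 (median 0.38). Higher were 3 of 4 AMPA subunits, both delta subunits and 3 of 4 NMDA subunits, of which 1 was left with either covariate. Gria2, the AMPA subunit that limits calcium entry, was at 80.6 to 141 CPM (median 121) in R6/2 and 7.61 to 34.5 (median 15.1) in wild-type pools (log2 fold change 2.63 ± 0.25, adjusted p = 3.3e-07, edgeR). Gria3, another AMPA subunit, was at 19.1 to 36.1 CPM (median 27.8) against 2.54 to 13.8 (median 6.44), and Grin3a, an NMDA subunit, at 23.8 to 61.7 CPM (median 47.7) against 2.6 to 15.5 (median 6.12). Grid1, a delta subunit, rose by 3.21 and the kainate receptor auxiliary Neto1 by 2.86. Among the falls, the kainate subunit Grik1 had separated groups (-0.79), and Grin2c, with medians of 1.58 and 4.14 CPM, did not. Falls numbered 2 without R6/2 replicate 4, wild-type replicate 2 or wild-type replicate 7. Of 13 GABA and glycine receptor genes 5 rose and 1 fell (8 and 1 on library totals), 4 of the rises in alpha and beta subunits. With the other-cell covariate 1 gene of the 13 was higher, and none of the alpha and beta subunits kept its call. Gabrg1 was the clearest, 25.4 to 34.4 CPM (median 30.1) against 3.99 to 11.2 (median 7.06), while Gabra3 was at 5.22 to 12.1 CPM (median 8.66) against 0 to 2.72 (median 1.98) and Gabrb2 at 2.05 to 8.82 CPM (median 5.02) against 0.198 to 3.11 (median 1.04). The falls of Grin2c and Gabrd (-2.21) were lost with either covariate, and the rises of Gabra3 and Gabrb2 with the other-cell covariate. With all 8 groups of the series fitted together, Grik1, Gabrb2 and Gabrd were not called.

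Voltage-gated sodium and calcium channels divided by type. Of 21 tested genes, 9 rose and 4 fell (median 0.79; 13 and 3 on library totals), and all 4 tested sodium alpha subunits were among the rises. Scn3a was at 5.67 to 11.6 CPM (median 8.74) against 0.335 to 2.54 (median 1.66), Cacna2d3, an auxiliary calcium channel subunit, at 8.7 to 12.7 CPM (median 10.2) against 0.48 to 2.23 (median 1.06), and the P/Q-type channel Cacna1a rose by 2.62 ± 0.38. The T-type channels moved the other way: Cacna1h fell from a median of 3.58 to 1.07 CPM and Cacna1g from 0.865 to 0.13. Cacna2d4 fell by 1.06 on the log2 scale. Cacna1g had overlapping groups and was not called with all 8 groups fitted together. Potassium channels are represented here only by the falls of Kcnk5 and Kcnk13 above.

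Secretory genes rose in the same way, 26 of 47 vesicle and neuropeptide genes with 6 falls and a median of 0.66 (30 and 6 without R6/2 replicate 7, 36 and 4 on library totals, 16 and 6 with the other-cell covariate). Dense-core vesicle genes counted 9 rises of 12, SNARE and synaptotagmin genes 14 of 28 (7 with the other-cell covariate). Chgb, a granin of dense-core vesicles, had a median of 6.53 CPM in R6/2 and 0.823 in wild-type pools, and Penk, the enkephalin precursor, 1.34 and 0.223. The call of Chgb was lost with the other-cell covariate and with all 8 groups. Among the falls, Syt11, a synaptotagmin that does not bind calcium, was at 1886 to 2448 CPM (median 2154) against 3183 to 3965 (median 3675), Synpr (synaptoporin) at 16.7 to 27.2 CPM (median 24) against 65.2 to 97.7 (median 74.7), and Nppc, the C-type natriuretic peptide precursor, at 1.27 to 2.68 CPM (median 1.57) against 5.15 to 7.22 (median 6.18). All 3 had separated groups, and of the whole list 17 of 47 did (18% over all genes).

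Axon guidance families did not move as one. Slits, netrins and their receptors, a list that also holds Reln among its rises, were mostly higher, 12 of 21 with 2 falls (median 0.98). With the other-cell covariate 4 rose and 3 fell. Of 8 ligands 6 rose (3 with the Y-linked and 1 with the other-cell covariate). Groups were separated for 4 of the 21, near the share of 18% over all genes. Slit2 had a median of 5.12 CPM in R6/2 and 0.11 in wild-type pools, and the netrin receptor Unc5a was at 4.62 to 10.8 CPM (median 10.1) against 0.165 to 1.78 (median 1.32). Its relative Unc5b fell, 83.2 to 119 CPM (median 91.4) against 174 to 281 (median 229) (log2 fold change -1.27 ± 0.11, adjusted p = 9.2e-08, edgeR). Ephrins and Eph receptors split 7 to 10 (median -0.39): Ephb3 rose from a median of 2.13 to 21.2 CPM, while the myelin-associated ligand Efnb3 fell, 511 to 751 CPM (median 626) against 1044 to 1303 (median 1247). Semaphorins, plexins and neuropilins split 8 to 7 (median -0.06). Class 3 and 5 ligands led the rises, with Sema3e at 6.2 to 25.2 CPM (median 18.9) against 1.64 to 5.4 (median 3.09) and Sema5b at 1.76, and the transmembrane Sema6d (109.6 to 269 CPM (median 219) against 436 to 648 (median 605)) and Sema4d (194 to 352 CPM (median 248) against 447 to 595 (median 548)) led the falls with Sema7a (-1.21). On library totals the Eph list split 7 to 7 and the semaphorin list 12 to 4. The call of Sema5b was lost with the other-cell covariate and that of Slit2 with either covariate. With the other-cell covariate 2 semaphorin genes were higher and 7 lower, and 3 Eph and ephrin genes were higher and 6 lower.

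The extracellular coat showed a like division. Proteoglycan genes counted 17 rises and 9 falls of 54 (median 0.13; 25 and 5 on library totals, 6 and 10 with the other-cell covariate), with 3 of 4 lecticans up. Bcan (brevican) was at 686 to 866 CPM (median 795) against 79 to 177 (median 104), Vcan (versican) at 27.8 to 72.9 CPM (median 53.9) against 5.27 to 25.1 (median 14.7) and Acan (aggrecan) at 6.3 to 14.8 CPM (median 13.2) against 0.231 to 2.1 (median 0.362); Ncan (neurocan) was not called (-0.13, adjusted p = 0.74, edgeR). The call of Vcan was lost with the other-cell covariate. Enzymes of chondroitin sulfate synthesis gave 5 rises of 14, 2 with the other-cell covariate. The heparan sulfate proteoglycan Sdc4 (syndecan) rose, 18.9 to 33.9 CPM (median 28.3) against 2.42 to 7.15 (median 3.53), and the heparan sulfotransferase Hs3st1 fell, 70.5 to 100.1 CPM (median 79) against 158 to 206 (median 201). The list of integrins, laminins and collagens, which also holds matrix protease genes, counted 12 rises and 27 falls of 61 (median -0.49). On library totals it had 19 and 19, and with the other-cell covariate 7 and 19. By class, 1 rose and 5 fell of 14 integrins, 0 and 6 of 10 laminins and 6 and 10 of 20 collagens. The protease class had 5 rises and 6 falls of 17. Fibrillar Col1a1 and Col3a1 fell by 2.17 and 1.89 on the log2 scale, and basement-membrane Col4a5 by 1.99. Fibroblast and vessel markers fell beside them, as the summed levels above show, and their part in these falls was not tested. Against that direction the collagen IX genes rose, Col9a2 at 52.8 to 98.8 CPM (median 83.6) against 3.45 to 5.54 (median 3.73) and Col9a3 at 140.1 to 225 CPM (median 204) against 62.8 to 83.4 (median 78.9), as did the matrix protease Mmp2 (46.4 to 83.1 CPM (median 67.7) against 5.46 to 18.4 (median 9.96)) and the protease inhibitor Serpine2 (225 to 335 CPM (median 309) against 34.8 to 90.9 (median 59.3)).

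**Figure D3:**
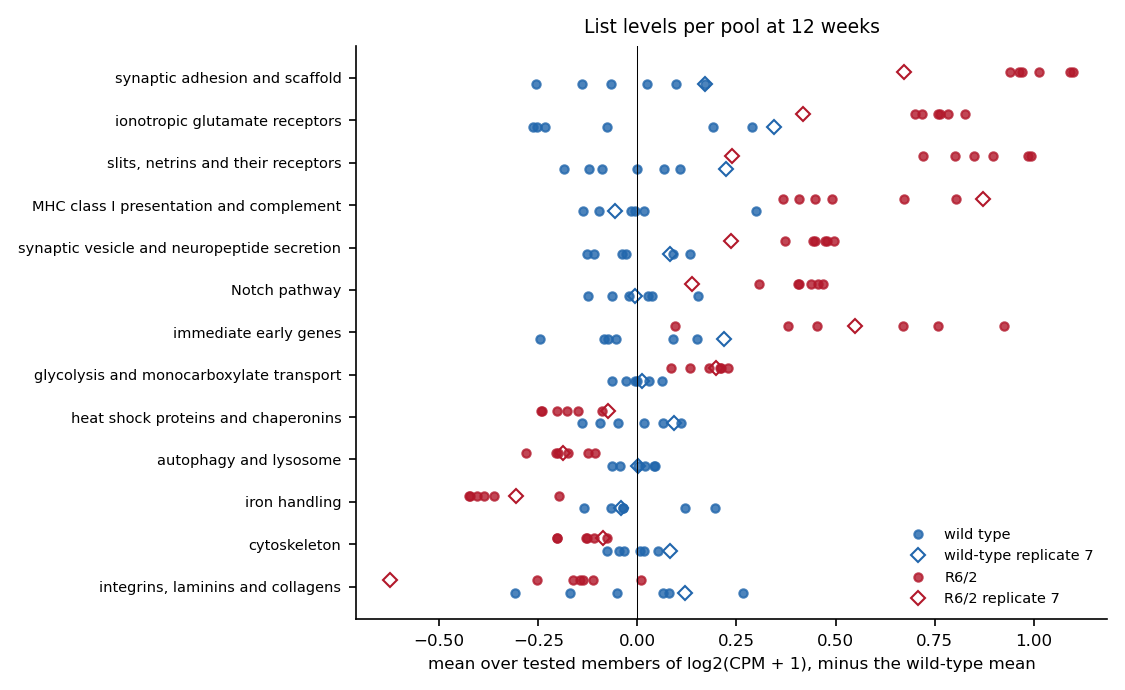
Mean over the tested members of log2(CPM + 1) for 13 lists in each R6/2 (red) and wild-type (blue) pool, minus the wild-type mean; open diamonds mark replicate 7 of each group. R6/2 replicate 7 is the lowest R6/2 pool for the synaptic adhesion, glutamate receptor and Notch lists. It lies below every other pool for the list of integrins, laminins and collagens, which also holds matrix protease genes.

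Notch pathway genes rose more often than they fell, 15 and 5 of 35 (median 0.35; 22 and 2 on library totals, 12 and 3 with the Y-linked covariate). Notch receptors act by cleavage and by switching on HES and HEY repressors, and 5 of 7 listed targets rose. Notch1 was at 54.6 to 81.8 CPM (median 73.7) in R6/2 and 11.8 to 20.9 (median 15.8) in wild-type pools (log2 fold change 2.12 ± 0.13, adjusted p = 1.8e-09, edgeR). Its coactivator Maml2 was at 16.2 to 22.4 CPM (median 20.6) against 4.08 to 5.58 (median 4.83). Targets Hey1 (12.1 to 16.4 CPM (median 14.3) against 3.59 to 6.46 (median 5.33)), Hey2 (2.39) and Nrarp (10.4 to 19.6 CPM (median 15.2) against 4.4 to 7.01 (median 4.97)) rose with them, and so did Dner, a transmembrane Notch ligand, at 134 to 220.2 CPM (median 173) against 38.2 to 69.5 (median 56). The deepest fall with steady calls was the ligand-like Dlk2, 4.69 to 6.29 CPM (median 5.4) against 13.1 to 35.1 (median 31.5).

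BMP, activin and TGF-beta genes split 14 to 10 of 47 (median 0.08; 23 to 7 on library totals). Bmp4, a ligand that turns progenitors towards astrocytes, was at 41.1 to 49.5 CPM (median 44.3) against 5.86 to 11.5 (median 9.33) (log2 fold change 2.32 ± 0.13, adjusted p = 9.9e-10, edgeR), and the BMP-binding Bmper rose by 3.60. Bmp6 fell, 5.16 to 11.7 CPM (median 7.37) against 15.1 to 31.4 (median 20.8), as did the inhibitory Smad7, 32.9 to 51.7 CPM (median 40.9) against 85 to 120.2 (median 111). Wnt genes leaned to falls, 8 rises and 19 falls of 51 (median -0.05), although on library totals 20 were higher and 11 lower. With the Y-linked covariate 4 rose and 14 fell, with the other-cell covariate 4 and 12, and the median was -0.26 with each. Rises numbered 5 without R6/2 replicate 3 or wild-type replicate 7. Nkd1, an antagonist that Wnt signalling induces, fell, 50.6 to 66.2 CPM (median 59.8) against 128 to 153 (median 144), and the ligand Wnt5b from a median of 4.95 to 0.678 CPM. Wnt7b rose, 19.98 to 28.7 CPM (median 24.6) against 3.38 to 8.67 (median 3.95), and so did the secreted inhibitor Sfrp5 (2.82). Tcf7l2, the nuclear effector in the series title, rose slightly (0.40 ± 0.13), a call lost with either covariate.

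Receptor tyrosine kinases and their feedback genes counted 12 rises and 20 falls of 56 (median -0.33), with 10 of 20 receptors lower (6 with the other-cell covariate). On library totals the list split 22 to 12 and with the other-cell covariate 7 to 16. Fgfr2 was at 304 to 666 CPM (median 486) in R6/2 and 1100 to 1500 (median 1204) in wild-type pools, Erbb3 at 62 to 228 CPM (median 190.4) against 244 to 425 (median 363), and Kit, the receptor of stem cell factor, at 1.13 to 12.5 CPM (median 9.2) against 37.6 to 54.3 (median 43.8). Groups were separated for each, and for 15 of the 56 tested (18% over all genes). The feedback inhibitor Spry1 fell by 0.58 ± 0.09, a call lost on library totals, and 5 of 14 feedback genes fell in all against 2 rises, 3 against 2 with the Y-linked covariate.

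Immediate early genes, which neurons and glia switch on within minutes of a stimulus or of handling, counted 12 rises and 4 falls of 29 (median 0.36; 14 and 1 on library totals). Fos was at 102 to 544 CPM (median 176) in R6/2 and 16.6 to 47.1 (median 27.2) in wild-type pools (log2 fold change 2.97 ± 0.36, adjusted p = 3.9e-06, edgeR). Egr1 was at 59.5 to 270.3 CPM (median 99.2) against 11.3 to 54.2 (median 17.4), Fosb at 3.39 to 21.2 CPM (median 5.95) against 0.137 to 1.2 (median 0.642) and Junb at 23 to 68.8 CPM (median 32.6) against 5.69 to 14.6 (median 12.3). Groups were separated for all 4, and the R6/2 pools spread more than 4-fold for Fos, Egr1 and Fosb. Of the 29 tested, 7 had separated groups (18% over all genes). Other members fell: Arc, at 86.1 to 158 CPM (median 112) against 152 to 199 (median 184), Klf10 (-0.79), Dusp1 (-0.65) and Jund (-0.50), the last 3 not called on library totals and Dusp1 not with either covariate. Their groups overlapped, unlike those of the 4 rises. The sort took the same steps in both groups, per the labels' protocols, and the time from death to lysis of each pool is not given.

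The promoters of 3 of the rising genes are shown because AP1 genes are textbook targets of cyclic AMP and calcium signals through one motif. Each runs from 250 bases before to 50 bases after the gene's start, from RefSeq on GRCm38.p6, 5′ to 3′ on the gene's strand. Capitals mark TGACG, one arm of the cyclic AMP response element, on either strand.
Fos, chr12:85473640-85473939, plus strand: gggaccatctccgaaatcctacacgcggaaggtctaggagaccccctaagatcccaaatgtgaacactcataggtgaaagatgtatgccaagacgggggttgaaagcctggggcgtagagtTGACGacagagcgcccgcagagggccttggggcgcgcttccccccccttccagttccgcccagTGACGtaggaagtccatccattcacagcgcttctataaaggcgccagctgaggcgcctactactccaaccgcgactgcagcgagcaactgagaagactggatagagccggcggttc
Fosb, chr7:19309996-19310295, minus strand: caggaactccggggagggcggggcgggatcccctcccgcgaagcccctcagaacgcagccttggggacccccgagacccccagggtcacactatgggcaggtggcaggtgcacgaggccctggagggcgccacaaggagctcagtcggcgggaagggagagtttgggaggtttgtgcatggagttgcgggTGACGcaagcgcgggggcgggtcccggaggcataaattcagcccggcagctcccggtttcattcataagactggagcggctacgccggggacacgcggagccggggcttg
Junb, chr8:84978699-84978998, minus strand: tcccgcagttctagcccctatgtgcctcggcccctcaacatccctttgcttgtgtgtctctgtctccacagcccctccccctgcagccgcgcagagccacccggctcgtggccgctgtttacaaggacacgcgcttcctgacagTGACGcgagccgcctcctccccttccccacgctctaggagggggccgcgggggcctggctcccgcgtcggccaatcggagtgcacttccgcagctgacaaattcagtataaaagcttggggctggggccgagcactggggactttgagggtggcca
TGACG stood in 13 of 23 immediate early promoters with an entry (56.5%) and in 31.3% of the 10930 tested genes with one, on both strands. On the forward strand alone these shares were 39.1% and 19.4%. The matches began 129 and 66 bases before the start of Fos, 60 before that of Fosb and 106 before that of Junb. A match describes these letters only.

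In the antigen presentation and complement list, rises were nearly uniform in the class I pathway alone. Class I molecules carry peptides, made by the immunoproteasome and pumped by TAP, to the cell surface, and 18 of 21 genes of this pathway rose (median 1.74). B2m, the light chain, was at 77.3 to 465 CPM (median 167) in R6/2 and 20.3 to 56.8 (median 35.7) in wild-type pools (log2 fold change 2.48 ± 0.32, adjusted p = 7.9e-06, edgeR). The transporter Tap1 was at 11.9 to 15.2 CPM (median 12.8) against 1.33 to 3.02 (median 2.23), the immunoproteasome subunit Psmb8 at 7.27 to 21.8 CPM (median 10.4) against 1.42 to 2.93 (median 1.76), and its activator Psme1 at 30.2 to 45.7 CPM (median 35.4) against 10.4 to 16.1 (median 12). H2-D1 (2.48) and H2-T23 (1.54) rose as well; class I genes are near-identical copies, so how RSEM shared their reads is uncertain, and Tap1 overlaps Psmb9 on the opposite strand. None of the 4 tested class II genes was called with edgeR, DESeq2 or limma voom, and 0 had an unadjusted p under 0.05 in any of them. Complement genes went the other way, 4 falls and 1 rise of 13 (1 and 1 with the other-cell covariate). The rise was C4b, 159 to 364 CPM (median 349) against 79.3 to 89.1 (median 82.7), and the falls included the regulator Cd59a (-1.19). Of the 38 genes in the list, 19 rose with 4 falls, 21 and 6 without R6/2 replicate 7 and 19 and 1 with the other-cell covariate. Microglia and endothelium also express class I genes. Their summed markers are given above: those of microglia overlapped between the groups, and the 7 of 17 that fell lost their calls with the Y-linked covariate. Their part in these results was not tested.

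For these genes the motif printed is GAAANNGAAA, the core of the element bound by interferon regulatory factors, in capitals on either strand. The windows are as above.
B2m, chr2:122147437-122147736, plus strand: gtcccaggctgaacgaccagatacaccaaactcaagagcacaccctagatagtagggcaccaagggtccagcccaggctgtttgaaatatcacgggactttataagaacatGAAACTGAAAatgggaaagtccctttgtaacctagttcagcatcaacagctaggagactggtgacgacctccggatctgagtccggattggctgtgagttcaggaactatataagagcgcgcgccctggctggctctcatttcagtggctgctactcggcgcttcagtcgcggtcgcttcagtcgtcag
H2-T23, chr17:36032652-36032951, minus strand: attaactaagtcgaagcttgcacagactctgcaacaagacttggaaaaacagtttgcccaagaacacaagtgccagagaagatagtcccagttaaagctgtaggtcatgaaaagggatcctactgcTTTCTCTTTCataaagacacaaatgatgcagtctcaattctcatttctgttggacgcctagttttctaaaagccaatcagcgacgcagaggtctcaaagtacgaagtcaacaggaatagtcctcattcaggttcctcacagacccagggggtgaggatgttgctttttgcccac
Psme1, chr14:55578244-55578543, plus strand: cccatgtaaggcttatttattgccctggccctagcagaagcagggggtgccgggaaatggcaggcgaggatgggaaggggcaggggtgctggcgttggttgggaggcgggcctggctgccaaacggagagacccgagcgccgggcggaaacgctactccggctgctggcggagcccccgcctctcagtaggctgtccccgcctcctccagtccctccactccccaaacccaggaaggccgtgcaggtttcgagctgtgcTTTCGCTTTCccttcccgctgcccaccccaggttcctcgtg
GAAANNGAAA stood in 5 of 17 class I pathway promoters with an entry (29.4%) and in 2.88% of the 10930. The matches began 139 bases before the start of B2m and 124 before that of H2-T23, and in Psme1 the match lay after the start. On the forward strand alone it stood in 1 of the 17 (5.88%) and in 1.4% of all. Of the 23 immediate early promoters 1 held it (4.35%). TGACG stood in 10 of the 17 class I promoters (58.8%, and 47.1% on the forward strand), about as often as in the immediate early ones.

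Rises among energy genes lay mainly in glycolysis itself, 7 of 14 enzymes with 1 fall (7 and 3 without R6/2 replicate 7). Of 34 tested glycolysis and lactate genes, 12 rose and 7 fell, with a median of 0.04 (19 and 4 on library totals). Pkm, pyruvate kinase, was at 918 to 1069 CPM (median 992) in R6/2 and 305 to 382 (median 344) in wild-type pools, 2.92-fold higher (log2 fold change 1.55 ± 0.07, adjusted p = 8.2e-11, edgeR). Eno1, enolase, was at 444 to 594 CPM (median 531) against 195 to 286 (median 220.3), and Aldoc, aldolase C, an astrocyte marker as well, at 173 to 378 CPM (median 242) against 90.5 to 145 (median 104). Phosphofructokinases Pfkm (32 to 55.4 CPM (median 45.3) against 15.8 to 21 (median 17.7)) and Pfkp (25.1 to 34.2 CPM (median 31.3) against 9.83 to 16 (median 14.6)) rose with them, as did lactate dehydrogenase Ldhb (173 to 259 CPM (median 207) against 84.5 to 124 (median 109)) and the neuronal glucose transporter Slc2a3 (1.52). In contrast, Eno2, the enolase called neuronal, fell (-0.77). Slc16a1, the lactate transporter MCT1 of mature oligodendrocytes, fell, 169 to 258 CPM (median 201) against 339 to 462 (median 370.1). The pentose phosphate enzymes Taldo1 (362 to 562 CPM (median 394) against 736 to 823 (median 791)) and Tkt (197 to 279.6 CPM (median 253) against 339 to 429 (median 383)) fell too. Groups were separated for all 11 genes named here, most of them picked for their size or after their values were seen. In the list as a whole they were separated for 12 of 34 (18% over all genes).

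Protein folding and disposal genes leaned to falls. Heat shock proteins and chaperonins counted 4 rises and 19 falls of 54 (median -0.18), 7 of 9 HSP90 genes among the falls. With the Y-linked covariate 2 rose and 11 fell and with the other-cell covariate 2 and 10, and on library totals 23 rose and 4 fell, 1 of them an HSP90 gene. The stress-inducible Hsp90aa1 was at 551 to 888 CPM (median 687) in R6/2 and 922 to 1440 (median 1181) in wild-type pools (log2 fold change -0.80 ± 0.11, adjusted p = 1.4e-05, edgeR). Hsp90ab1, its constitutive partner, fell with overlapping groups (-0.47) and was not called on library totals. Dnajb2, a co-chaperone of misfolded proteins, was at 343 to 450.3 CPM (median 354) against 697 to 846 (median 735), the small heat shock protein Cryab at 711 to 1444 CPM (median 860.0) against 1532 to 1984 (median 1697), and Dnajc6, which uncoats clathrin vesicles, at 51.2 to 105 CPM (median 94.4) against 144 to 198 (median 148). Bag2 (1.37) and Dnajb4 (0.46) rose. Without R6/2 replicate 7, 7 members rose and 20 fell. Reads of Cryab and Hspb2, on opposite strands, cannot be told apart where they overlap.

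The unfolded protein and integrated stress response list had 5 rises and 17 falls of 49 (median -0.14), 19 and 6 on library totals, 3 and 12 with the Y-linked and 3 and 15 with the other-cell covariate. Rises numbered 3 without any 1 of R6/2 replicates 3 and 4 and wild-type replicates 2, 3 and 4. Eif2ak2, the double-stranded RNA kinase PKR and an interferon-responsive gene, rose, 12.2 to 23.3 CPM (median 17.9) against 1.15 to 2.16 (median 1.57), and Asns, asparagine synthetase, rose, 12 to 17.2 CPM (median 15.3) against 3.29 to 7.62 (median 4.44). The cystine transporter Slc7a11 fell, 17.6 to 45.3 CPM (median 31.3) against 48.8 to 127 (median 87.5), with the ER co-chaperone Sdf2l1 (-1.34) and Nupr1 (-1.76), whose call was lost with the other-cell covariate. Autophagy and lysosome genes gave 3 rises and 22 falls of 68 (median -0.16), 32 and 5 on library totals and 5 and 28 without R6/2 replicate 7. Ctsa, cathepsin A, was at 211 to 263 CPM (median 236) against 399 to 463 (median 433), Wipi1, of the forming autophagosome, at 45.9 to 60.2 CPM (median 54.8) against 79.4 to 102 (median 96.2), and Ctsh fell by 1.17. The lysosomal thioesterase Ppt1 rose, 372 to 501 CPM (median 462) against 249 to 371 (median 336), and Gaa (0.43) and Gusb (0.29) slightly. Calls of Ctsh, Gaa and Gusb were lost with the other-cell covariate, and Ctsa shares exons with neighbours on the opposite strand.

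Iron genes fell, 12 of 26 with 3 rises (median -0.37), against 8 falls and 9 rises on library totals and 9 falls and 1 rise with the other-cell covariate. Fth1, the ferritin heavy chain that stores iron, was at 2989 to 5922 CPM (median 3332) in R6/2 and 7266 to 8334 (median 7762) in wild-type pools (log2 fold change -1.10 ± 0.13, adjusted p = 3.4e-06, edgeR). The transferrin receptor Tfrc was at 33.7 to 71.8 CPM (median 59.1) against 104 to 122 (median 113), and Scara5, a ferritin receptor also of fibroblasts, at 1.34 to 4.97 CPM (median 3.42) against 8.82 to 30.7 (median 14.8). Hfe rose, 13.8 to 23 CPM (median 15.9) against 4.38 to 8.75 (median 6.35), and Steap2, a metalloreductase, by 1.89, a call lost with the other-cell covariate. Groups were separated for Fth1, Tfrc, Scara5 and Hfe, and for 9 of the 26 iron genes in all (18% over all genes). Glutathione and NRF2 genes split 7 to 12 of 39 (median -0.06), 21 to 5 on library totals, 7 to 6 with the Y-linked and 9 to 5 with the other-cell covariate. Nqo1, a quinone reductase, rose, 10.4 to 17 CPM (median 13) against 3.56 to 5.33 (median 4.61), and the transferases Gstp1 (627 to 1351 CPM (median 674) against 1614 to 1948 (median 1748)) and Gstm7 (111 to 150.2 CPM (median 121) against 188 to 271 (median 251)) fell.

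Cytoskeletal genes fell more often than they rose, 30 against 12 of 69 (median -0.28), with 25 higher and 13 lower on library totals. Tubb4a, the tubulin of oligodendrocytes, was at 4203 to 6487 CPM (median 5635) in R6/2 and 8878 to 11492 (median 10506) in wild-type pools, Tppp, a microtubule organizer of myelin sheaths, at 532 to 1565 CPM (median 1144) against 2855 to 3759 (median 3480), and Sept7, a septin, at 598 to 857 CPM (median 744) against 1744 to 2420 (median 1859). The neuronal or progenitor isoforms went up: Tubb3 at 74.6 to 168 CPM (median 90.7) against 38.5 to 54.4 (median 39.7), Map2 at 109 to 182 CPM (median 142) against 31.2 to 47.5 (median 37.6), Dcx (doublecortin) at 10.6 to 20.2 CPM (median 16) against 1.22 to 3.62 (median 1.88), and the intermediate filament Vim at 25 to 43.5 CPM (median 34.3) against 7.67 to 13 (median 10.04). Groups were separated for these 7 genes, and for 24 of the 69 tested (18% over all genes). Junction genes split 12 to 15 of 35 (15 to 7 on library totals, 6 to 13 with the other-cell covariate), and all 6 tested connexins fell, 4 of them on library totals and 4 with either covariate. Gjc3 was at 375 to 519.6 CPM (median 413) against 967 to 1090 (median 1004) and the astrocytic Gja1 at 15.9 to 35.8 CPM (median 23.6) against 37.8 to 95.4 (median 73.5), while Gjb1 fell by 0.47, a call lost on library totals. Cldn11, the tight junction protein of myelin, fell, 87.7 to 173 CPM (median 118) against 328 to 402 (median 380.4), and Cldn14 rose, 17.9 to 26.6 CPM (median 22.1) against 2.48 to 5.26 (median 3.74).

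Cyclic nucleotide signalling counted 18 rises and 10 falls of 43 (median 0.29; 26 and 7 on library totals). Prkar1b, a regulatory subunit of protein kinase A, was at 27.6 to 46.5 CPM (median 40.9) in R6/2 and 3.69 to 9.54 (median 4.8) in wild-type pools (log2 fold change 2.72 ± 0.20, adjusted p = 1.4e-08, edgeR), and its inhibitor Pkia at 52 to 73.9 CPM (median 58.8) against 9.45 to 18.5 (median 11.3). The phosphodiesterase Pde2a rose, 17 to 38.1 CPM (median 29.6) against 3.92 to 8.85 (median 6.55), and Pde8a fell, 88.9 to 147 CPM (median 109) against 276 to 380.0 (median 325). Adcy5, the adenylate cyclase best known from striatal neurons, fell, 54.6 to 104 CPM (median 82.5) against 190.0 to 259 (median 229.6). Among 42 G protein-coupled receptors 12 rose and 14 fell, 17 and 7 on library totals, 11 and 9 with the Y-linked and 10 and 7 with the other-cell covariate. Ackr3 (14.4 to 23.8 CPM (median 20.7) against 2.2 to 4.83 (median 3.36)) and the adhesion receptor Adgrb3 (13.2 to 26.7 CPM (median 20.6) against 2.15 to 5.56 (median 3.69)) led upwards and the sphingolipid receptor S1pr3 (7.52 to 15.7 CPM (median 10.9) against 23.7 to 62 (median 42.5)) downwards. Transporters split 15 to 16 of 40, 19 to 12 on library totals. Slc38a1, a glutamine carrier, rose, 17.4 to 43 CPM (median 26) against 1.94 to 4.02 (median 3.27), and the GABA transporter Slc6a13 fell, 14.2 to 41.3 CPM (median 20.6) against 59 to 142 (median 85).

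Lineage transcription factors split 22 to 15 of 59 (median 0.13; 37 to 8 on library totals), with 7 rises and 4 falls of 12 Sox genes (6 and 2 with either covariate). The SoxD gene Sox6, which holds progenitors back from myelination, was at 20.7 to 34 CPM (median 23.5) in R6/2 and 2.42 to 7.15 (median 4.13) in wild-type pools, Sox5 at 10.2 to 21.2 CPM (median 14.6) against 0.58 to 4.37 (median 1.48) and Sox4 at 25.9 to 34.9 CPM (median 29.8) against 5.37 to 14.7 (median 8.18). Sox3 (3.88) and Myt1 (2.54) rose from low levels. Sox10, needed at all stages of the lineage, fell by 0.45 ± 0.10 and was not called on library totals, and the POU factor Pou3f1 fell, 26.5 to 37.3 CPM (median 31.1) against 50.4 to 83.1 (median 68.7). Chromatin regulators moved near the background, 12 rises and 15 falls of 75 (40 and 3 on library totals, 21 and 15 without R6/2 replicate 7, 9 and 9 with the Y-linked and 6 and 15 with the other-cell covariate), with Dnmt3a (48.4 to 82 CPM (median 74.1) against 102 to 144 (median 133)) and Hdac5 (96.8 to 169 CPM (median 135) against 179 to 236 (median 226)) the deepest falls.

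Cell cycle genes gave 11 rises and 3 falls of 45 (22 and 1 on library totals, 12 and 5 without R6/2 replicate 7, 8 and 1 with the Y-linked and 7 and 1 with the other-cell covariate), but of the 15 tested G2 and M genes 0 rose with edgeR, DESeq2 or limma voom. At an unadjusted p under 0.05, DESeq2 had 1 of them higher and edgeR 0. The rises lay in G1 and S genes (7 of 21, 4 with the other-cell covariate) and in inhibitors (4 of 9). Cdkn1c, the inhibitor p57, was at 35.4 to 56.6 CPM (median 43.4) in R6/2 and 5.47 to 10.4 (median 8.05) in wild-type pools (log2 fold change 2.44 ± 0.15, adjusted p = 2.4e-09, edgeR). Cdkn1a, the inhibitor p21, overlapped between groups, 23 to 143 CPM (median 43.5) against 16.1 to 25.8 (median 17.3). Its call was lost with all 8 groups fitted together. Genes of p53 and DNA damage split 6 to 3 of 24 (12 to 1 on library totals, 5 to 5 with the other-cell covariate), and the p53 target Phlda3 fell, 69.6 to 113 CPM (median 82) against 167 to 211 (median 196).

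Clock genes split 6 to 8 of 22, 9 to 1 on library totals, 4 to 4 with the Y-linked and 3 to 2 with the other-cell covariate, with 5 falls without wild-type replicate 4 or 7. Per3 rose, 11.1 to 20.2 CPM (median 16.6) against 5.61 to 10.6 (median 7.67) and Bhlhe40 by 0.72, and Nr1d1 fell by 0.90, a call lost with the other-cell covariate. Glucocorticoid-responsive genes split 5 to 8 of 21, 7 to 3 on library totals, 5 to 4 with the Y-linked and 5 to 3 with the other-cell covariate, with 5 falls without R6/2 replicate 4, 5 or 6. Glul, glutamine synthetase, was at 325 to 592 CPM (median 406) against 831 to 1219 (median 983). Fkbp5 (0.77) and Zbtb16 (0.84) rose, with overlapping groups, and lost their calls with all 8 groups fitted together. The hour at which mice were killed is not in the labels used here.

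RNA-binding proteins divided by class, 17 rises and 9 falls of 57 in all (43 and 2 on library totals, 13 and 5 with the Y-linked covariate). Of 28 neural and glial regulators 13 rose and 6 fell, while 1 of 14 SR proteins and 3 of 15 hnRNP genes rose. On library totals 11 SR and 13 hnRNP genes rose, and with the other-cell covariate 3 and 1. Elavl4, the neuronal RNA stabilizer HuD, was at 11.8 to 20.7 CPM (median 17.6) in R6/2 and 0.659 to 1.9 (median 1.45) in wild-type pools (log2 fold change 3.74 ± 0.25, adjusted p = 6.8e-09, edgeR), and Celf5 rose by 2.40. Qk, the glial splicing regulator quaking, fell, 1195 to 1932 CPM (median 1407) against 2877 to 3450 (median 3131), and Mbnl2 fell, 369.9 to 465 CPM (median 402) against 672 to 786 (median 738). Both had separated groups, and of the whole list 14 of 57 did (18% over all genes).

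Calls also varied with gene length. Among protein-coding genes of GENCODE M21, 330 with a gene body over 200 kb rose (39.8% of those tested) and 123 fell (14.8%), with a median log2 fold change of 0.34. For the 2543 genes of 10 to 20 kb, 15.4% rose and 21.5% fell (median -0.05). The share that rose was 17.5% up to 10 kb, 17.8% at 20 to 50 kb, 21.8% at 50 to 100 kb and 28% at 100 to 200 kb. At a mean level up to 5 CPM, 43.8% of 251 genes over 200 kb and 22.7% of 2901 shorter ones rose. At 5 to 50 CPM the shares were 48.1% of 378 and 21.5% of 5910, and over 50 CPM 19% of 200 and 11.6% of 3659. Falls made up 2.39% and 11.5% up to 5 CPM and 10.8% and 15.5% at 5 to 50 CPM, in the same order. Over 50 CPM 38% of genes over 200 kb and 34.9% of shorter ones fell, so falls outnumbered rises in both. The median of those over 200 kb was -0.10 there. Leaving out every gene of the lists described here, 36.5% of 657 genes over 200 kb rose. With the Y-linked covariate 32.3% of genes over 200 kb rose and 13.3% fell, and with the other-cell covariate 24% and 15.1%. Over all genes these shares were 14.9% and 13.7% with the Y-linked and 13.3% and 14.7% with the other-cell covariate. On library totals 65% of genes over 200 kb rose and 8.44% fell. At 6 weeks the median over this class was 0.09 and in zQ175 pools -0.11.

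**Figure D4:**
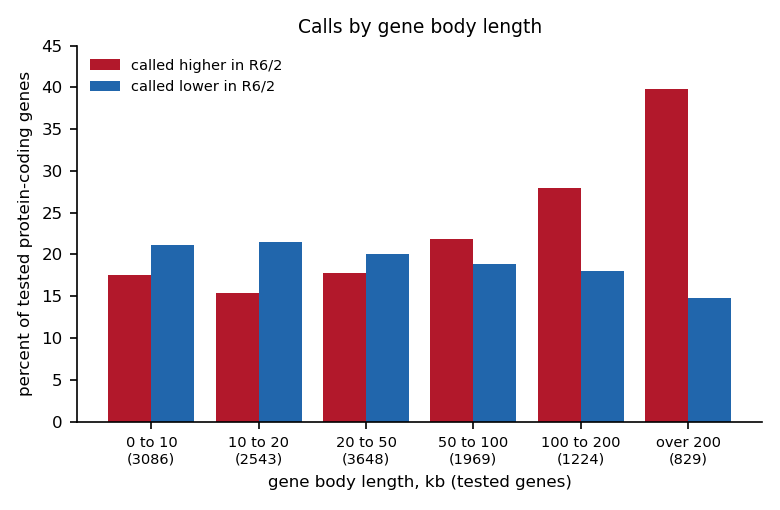
Percent of tested protein-coding genes called higher (red) or lower (blue) in 12-week R6/2 pools, by gene body length in kb, with the number tested in brackets. The share called higher rises from 15.4% at 10 to 20 kb to 39.8% over 200 kb, and the share called lower falls from 21.5% to 14.8%.

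By chromosome, the X stood highest, with 28.6% of 511 genes called higher and 12.5% lower (median 0.13). The sexes of the pools differed between the groups. With the Y-linked covariate these shares were 24.3% and 8.81%, against 14.9% and 13.7% over all genes. On chromosome 18, 26.8% of 407 genes rose, and shares on the other autosomes lay between 14.8% (chromosome 11) and 22.9% (chromosome 14). Processed pseudogenes were called least often upwards, 3.07% of 261, and lincRNAs near the background, 17.5% of 343.

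The same lists differed with age. An age by genotype interaction, which asks if the R6/2 effect at 12 weeks differs from that at 6 weeks, was called for 997 of 16513 genes (6.04%), 470 positive (2.85%) and 527 negative (3.19%). Without R6/2 12-week replicate 7 it was called for 1784, and with the replicate number as a block for 584. Each age has its own wild-type pools, but any batch that follows age cannot be told apart from it. At 6 weeks 695 of 14912 genes were called (4.66%), 347 higher (2.33%) and 348 lower (2.33%). Among synaptic adhesion and scaffold genes 10 of 40 had a positive interaction, with 3 rises and 1 fall at 6 weeks itself. Dlgap1 was 0.72 at 6 weeks and 2.98 at 12 weeks (interaction 2.27, adjusted p = 5.5e-04, edgeR). Immediate early genes had 8 positive and 1 negative interaction of 30, Fos with 0.83 at 6 weeks (interaction 2.16, adjusted p = 0.021, edgeR). Elavl4 went from 0.51 to 3.74 (interaction 3.24) and Dner from 0.32 to 1.70 (interaction 1.39).

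Other members were already changed at 6 weeks. Col9a2 was 3.49 at 6 weeks and 4.27 at 12 weeks, and its interaction was not called (0.79, adjusted p = 0.084, edgeR). Class I and complement genes counted 8 rises and 1 fall of 34 at 6 weeks, glycolysis genes 6 rises and 1 fall of 34, and Pkm was 1.18 at 6 weeks (interaction 0.38, adjusted p = 0.018, edgeR). Cdkn1c (2.04), Sept7 (-0.77) and Maml2 (1.74) were also called then, though the fall of Sept7 was deeper at 12 weeks (interaction -0.63, adjusted p = 0.0022, edgeR). Cytoskeletal genes held 3 positive and 11 negative interactions of 69, with Stmn4 (-0.23 at 6 weeks, -0.97 at 12), a stathmin, and Epb41l3 (-0.17 and -0.90), a membrane linker, among those with the smallest p-values. Nkd1 (-0.29 and -1.27) had the smallest among the pathway lists (interaction -0.97, adjusted p = 5.5e-06, edgeR). Heat shock genes had 1 interaction call of 54, so their falls were not shown to differ between the ages.

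Against the zQ175 line at the same age, 3439 of 16221 genes had a line by genotype interaction (21.2%), 1750 positive (10.8%) and 1689 negative (10.4%). In zQ175 pools themselves 12 of 14372 genes were called (0.0835%), 7 higher (0.0487%) and 5 lower (0.0348%). Synaptic adhesion and scaffold genes held 23 positive and 1 negative interaction of 38, class I and complement genes 16 and 3 of 40, glycolysis genes 13 and 5 of 34, and autophagy and lysosome genes 4 and 13 of 68. Lrrc4 was 0.11 in zQ175 (interaction 1.71, adjusted p = 7.4e-10, edgeR), Pkm 0.19 (interaction 1.37), Gjc3 -0.21 (interaction -1.06) and Kcnk13 -0.21 (interaction -2.02). Of the glucocorticoid-responsive genes 5 of 21 had a negative interaction. The median of that list was -0.69 in R6/2 at 6 weeks, -0.26 at 12 weeks and 0.37 in zQ175. Lines differ in transgene, breeding and possibly batch, which cannot be told apart from the genotype effect here.

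**Figure D5:**
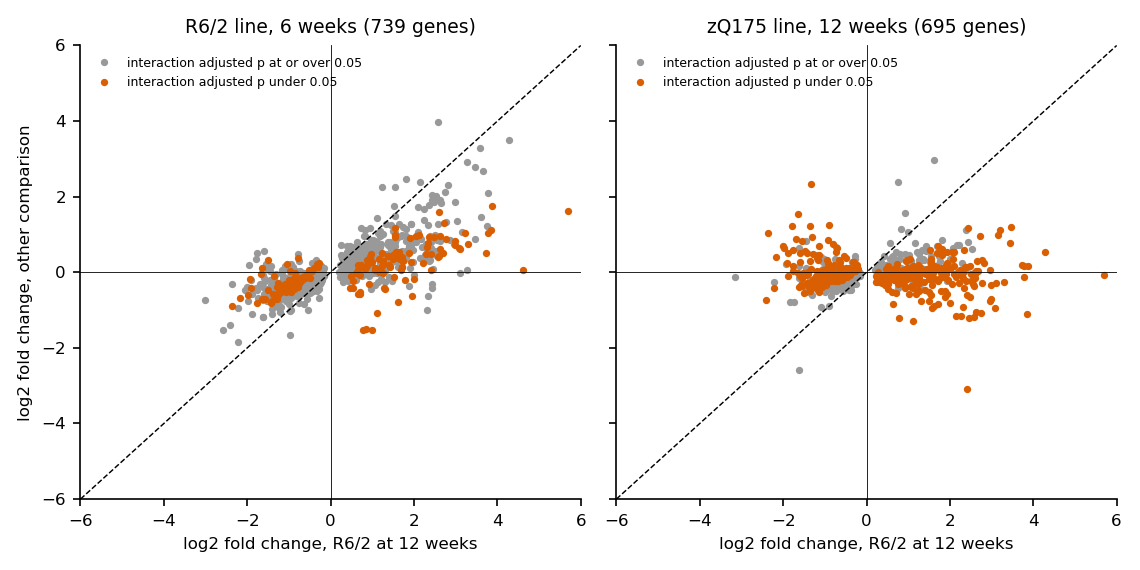
Log2 fold changes of the list members called at 12 weeks in R6/2 (x axis) against R6/2 at 6 weeks (left, 739 genes) and zQ175 at 12 weeks (right, 695 genes), each against its own wild-type pools; the dashed line marks equal values. Orange points have an interaction adjusted p under 0.05, 165 on the left and 396 on the right. Over all genes tested these interactions were called for 6.04% and 21.2%. The genes plotted were picked by their 12-week call, which enters both interactions. More interaction calls and smaller values on the y axis thus follow in part from the choice.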

How the data were processed

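RNA-seq libraries of pooled, sorted striatal cells were made with an unstranded polyA kit, per the labels' protocols. The authors deposited 1 table of RSEM expected counts per gene, not scaled for library size; CASAVA, STAR 2.5.2b and RSEM 1.3.0 are named in the submitters' processing notes, and the mouse build used is not given in the sources used here. Pools were assigned by the table's column names, which match the sample titles. RSEM divides reads shared by near-identical genes, so single values of class I, histocompatibility, tubulin and Ifit copies are uncertain.

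Expected counts were rounded to whole numbers, filtered with filterByExpr, scaled by TMM and tested with edgeR 4.0.16 (robust quasi-likelihood test, R 4.3.3) with Benjamini-Hochberg adjustment over all genes tested, at 0.05. Only the groups of a comparison entered its fit. No covariate was used. Standard errors were taken from the fold change and its F statistic. Totals of 33337839 to 49166260 counts per pool limit precision for genes of a few CPM. Alternatives were RLE size factors, no filter, a stricter filter, DESeq2 1.42.0, limma 3.58.1 voom, the replicate number as a block, covariates from Y-linked transcripts and from microglia, endothelium, mural and fibroblast markers, all 8 groups in 1 fit, leaving out each pool and, chosen after seeing the data, library totals for scaling. Symbols, gene bodies and promoters came from GENCODE M21 and RefSeq on GRCm38.

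The comparison, the 34 pathway lists and 13 marker lists were chosen with earlier results of these data known, and no list was tested as a set. The rule for named genes took the 12 largest rises and falls at 10 CPM or more without overlap, and for each list the 3 largest called changes in each direction, or every one where 5 or fewer were called. It also took the 2 highest markers of each marker list, Pdgfra, Htt and Tcf7l2, and the 6 list members with the smallest p in each interaction. Genes of the rule whose call ended when 1 pool was left out were counted but mostly not named, so the named genes are no sign of stability. Some genes that the rule names are not reported here. Hsp90aa1, Hsp90ab1, Eno1, Pfkp, Ldhb, Tkt, Fth1, Tfrc, B2m, H2-D1, H2-T23, Psme1, C4b, Junb, Grin3a, Gria3, Dlgap1, Hey1, Nrarp, Bmp4, Smad7, Gjb1, Chgb, Vcan, Ncan, Tubb4a, Sox6, Sox4, Pde2a, Fgfr2, Erbb3, Spry1, Efnb3, Slit2, Slitrk2, Col9a3, Nefl, Stmn2, Gad2, S100b, Aldh1l1, Bcl11b, Rgs9 and Ppp1r1b were chosen after their values were seen.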

Additional observations from a re-analysis of the deposited data

Results flagged for a closer look

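Pools that lay far from the other 6 of their group were looked for in the named genes and in the library measures, by the gap to the nearest pool over the range of the group at the 95% limit. Of 414 group comparisons 51 passed it, and chance passes about 1 in 20. R6/2 replicate 7 was the distant pool in 24 of them, beginning with its mitochondrial share of 2.72%.

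For the reporter's gene Pdgfra, R6/2 replicate 7 was low at 23.5 CPM, as it was for Notch1 at 54.6 CPM, Erbb3 at 62 CPM, Sox10 at 374 CPM, Dnmt3a at 48.4 CPM, Gbp6 at 30.9 CPM and Sema5b at 6.46 CPM. It was the high R6/2 pool for the class I genes B2m at 465 CPM, H2-T23 at 37.2 CPM and Psmb8 at 21.8 CPM. The same pool was high for Tubb3 at 168 CPM, Fth1 at 5922 CPM, S100b at 315 CPM, Sox9 at 4.12 CPM, Glul at 592 CPM, Taldo1 at 562 CPM, Cdkn1a at 143 CPM, Gstp1 at 1351 CPM and Gstm7 at 150 CPM. It also stood high for Slc6a13 at 41.3 CPM, Ctsh at 19.8 CPM, Nupr1 at 10.6 CPM and Nppc at 2.68 CPM. Other R6/2 pools stood apart for Nhlrc4 (replicate 2, high at 5.26 CPM), Gjc3 (replicate 2, high at 520 CPM), Serpine2 (replicate 2, low at 225 CPM) and Spry1 (replicate 4, low at 41.1 CPM). The causes were not tested.

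Among wild-type pools, replicate 6 was high for Ifit3b at 6.81 CPM, H2-D1 at 107 CPM, H2-T23 at 16.2 CPM and Psmb8 at 2.93 CPM, 4 interferon-responsive genes, and low for Erbb3 at 244 CPM and Hdac5 at 179 CPM. Replicate 7 was high for Egr1 at 54.2 CPM, Dlg1 at 328 CPM, Pkia at 18.5 CPM, Bmper at 3.28 CPM, Gucy2f at 0.853 CPM and Ppl at 0.879 CPM. Replicate 2 was low for Kcnk5 at 9.54 CPM, Kcnk13 at 272 CPM, Hs3st1 at 158 CPM and Stmn4 at 871 CPM and high for Gabrb2 at 3.11 CPM and Hey2 at 2.35 CPM. Replicate 1 was high for Slitrk4 at 3.23 CPM and Glul at 1219 CPM, and replicate 3 was high for Bmp6 at 31.4 CPM and Slc6a13 at 142 CPM and low for Col9a3 at 62.8 CPM.

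Where the effects of both ages are given above, the interaction passed the threshold for Elavl4 (3.24 on the log2 scale), Dlgap1 (2.27), Fos (2.16), Dner (1.39), Pkm (0.38), Sept7 (-0.63), Epb41l3 (-0.71), Stmn4 (-0.73) and Nkd1 (-0.97). Against zQ175 it passed for Lrrc4 (1.71), Pkm (1.37), Gjc3 (-1.06) and Kcnk13 (-2.02). Of all 205 named genes, 90 had an age interaction and 162 a line interaction below the threshold in edgeR's quasi-likelihood test. Over all genes tested the shares were 6.04% and 21.2%. Named genes were mostly picked for large 12-week effects, which enter both interactions, and some for a small interaction p. These counts thus follow in part from the choice.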

How the results depend on the processing

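The 12-week comparison called 5704 genes. Under RLE size factors, the 2 other filters, DESeq2, limma voom, the replicate block, both covariates and all 8 groups together, the count lay between 4113 and 6183, and on library totals it was 8210, all within 1.5 times. With the Y-linked covariate 4086 of the calls stood in the same direction, and with the other-cell covariate 3447. Leaving out 1 pool at a time gave 5170 to 7026 calls for the 12-week comparison, 729 to 1784 for the age interaction and 2991 to 4724 for the line interaction, the highest of each without R6/2 replicate 7. Same-numbered R6/2 and wild-type pools deviated together with correlations between -0.068 and 0.116, and only replicate 4 matched its own number best. The labels do not say if a number marks a litter shared by both groups. Low correlations cannot show that it does not, and the pools were not treated as pairs. With the replicate block the age interaction had 584 calls against 997, the 12-week comparison 5397 and the line interaction 3036. DESeq2 gave 1374 calls for the age interaction, no filter 745, and the Y-linked and other-cell covariates 722 and 684. On library totals the line interaction had 5084 calls. No named gene reversed. Of the named genes, the other-cell covariate ended the call of Grin2c, Gabrb2, Gabra3, Gabrd, Sema5b, Dusp1, Nupr1, Gaa, Gusb, Ctsh, Nr1d1, Steap2, Sox9, Tcf7l2, Chgb, Vcan and Slit2, the Y-linked covariate of Grin2c, Gabrd, Dusp1, Gaa, Ctsh, Sox9, Tcf7l2 and Slit2, all 8 groups of Grik1, Gabrb2, Gabrd, Cacna1g, Cdkn1a, Zbtb16, Fkbp5 and Chgb and library totals of Klf10, Dusp1, Jund, Sox10, Hsp90ab1, Gjb1 and Spry1. The replicate block ended that of Grin2c. Htt and Syp were called on library totals, and Syp also without R6/2 replicate 7. The cause was not tested.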

Other observations

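Astrocyte markers did not move together, although the median of their summed level was higher in R6/2 pools. Of 16, 3 rose and 9 fell, with a median log2 fold change of -0.76 against -0.03 over all genes. Falls numbered 5 with the Y-linked covariate and 2 with the other-cell covariate, where the median was -0.20. The sum rested on S100b, a calcium-binding protein also of oligodendrocytes, at 188 to 315 CPM (median 204) in R6/2 against 32.2 to 40.3 (median 35.5) in wild-type pools, on Aldoc and on the glutamate transporter Slc1a3 (0.49). Aldh1l1 (-1.24) and Sox9 (-1.36), which are more particular to astrocytes, fell, and the call of Sox9 was lost with either covariate. S100b and Aldh1l1 were chosen after their values were seen.

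Markers of striatal projection neurons were as divided, 4 rises and 3 falls of 10 tested. Adcy5 made up most of the sum. Bcl11b (2.86) and Rgs9 (2.44) rose and Ppp1r1b fell (-1.22), none of them above 15 CPM in any pool. Of 5 red blood cell markers the 4 globin genes fell, with overlapping groups and no call left with either covariate, and the summed level of the 5 lay between 2.48 and 39.3 CPM in R6/2 and between 24.9 and 106 in wild-type pools.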
